A study of Mus musculus with 3 samples.

Results

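The genes described here are the 3 NR4A nuclear receptor genes, *Nr4a1*, *Nr4a2* and *Nr4a3*, and 3 EGR zinc-finger genes, *Egr1*, *Egr2* and *Egr3*, which are 6 of the 24958 genes of a single-cell table of mouse ovary. They were taken by name, as immediate early transcription factors, with earlier results of these data known. The table comes from droplet-based (10x Genomics) libraries of ovaries, 1 library each for 0, 1 and 6 h of exposure to hCG. This hormone, human chorionic gonadotropin, acts on the luteinizing hormone (LH) receptor and triggers ovulation. The study's text describes 21-day-old Kunming mice that had received PMSG, a serum gonadotropin that makes follicles grow, 48 h earlier. That text fits the library at 0 h, and whether the mice at 1 and 6 h had also received PMSG is not stated in the sources used here. No genotype is given and the number of animals per library is not given in the sources used here. The cells carry barcodes that end in 1, 2 or 3, called barcode sets 1, 2 and 3 below. The labels number the 3 library names, but nothing says that the barcode endings follow those numbers, so no time point was given to a set. With no replicate of a set, no test was possible, and every interval below is a 95% interval that covers counting error only.

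NR4A proteins are orphan nuclear receptors, whose ligand pocket is filled by their own side chains, so that their activity follows mainly from how much protein is made. EGR proteins bind GC-rich sites through 3 zinc fingers. Both families are encoded by immediate early genes, which are transcribed within minutes of a signal such as cyclic AMP or growth factor signaling without new protein synthesis, and whose messages decay quickly. In the ovary, LH raises cyclic AMP in theca cells and mural granulosa cells, and granulosa cells then release EGF-like ligands that pass the signal on. NR4A factors are known as regulators of steroidogenic genes in theca and granulosa cells, and *Egr1* is known for its role in gonadotropin action.

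In the annotation of the mouse genome build GRCm38 (GENCODE M21), *Nr4a1* (ENSMUSG00000023034.7) lies at chr15:101254269-101274795 on the plus strand and *Nr4a2* (ENSMUSG00000026826.13) at chr2:57106830-57124003 on the minus strand. *Nr4a3* (ENSMUSG00000028341.9) lies at chr4:48045153-48086447, *Egr2* (ENSMUSG00000037868.15) at chr10:67535475-67542188 and *Egr3* (ENSMUSG00000033730.4) at chr14:70077203-70082614, all on the plus strand. The identifier of *Egr1* is ENSMUSG00000038418.7. The 250 bases before the start site, from RefSeq (GRCm38.p6), are shown for the 4 members matched in the RefSeq promoter table, because cyclic AMP response elements and serum response elements are the best known control sequences of immediate early genes. The windows are chr15:101266596-101266845 (plus strand) for *Nr4a1*, chr2:57124004-57124253 (minus strand) for *Nr4a2*, chr4:48045055-48045304 (plus strand) for *Nr4a3* and chr10:67537619-67537868 (plus strand) for *Egr2*. *Egr2* has 5 entries in the table, and one that begins at the start of a GENCODE transcript was taken. For *Nr4a3* the RefSeq start lies 152 bases from the nearest start of a GENCODE transcript tagged as principal, and other transcripts were not searched. Part of its window is therefore transcribed in the GENCODE model. The starts used for *Nr4a1* and *Egr2* lie within the longer GENCODE genes. Each window is written 5′ to 3′ on the strand of the gene, with capitals marking the half-site of the cyclic AMP response element (TGACG, or CGTCA on the other strand) and the CArG box, the core of the serum response element.
*Nr4a1*: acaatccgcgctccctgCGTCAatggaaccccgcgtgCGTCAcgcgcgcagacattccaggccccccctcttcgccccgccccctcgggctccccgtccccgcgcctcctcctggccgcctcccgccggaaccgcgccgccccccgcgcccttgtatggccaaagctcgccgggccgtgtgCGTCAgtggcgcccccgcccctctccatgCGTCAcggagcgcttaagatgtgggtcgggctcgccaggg
*Nr4a2*: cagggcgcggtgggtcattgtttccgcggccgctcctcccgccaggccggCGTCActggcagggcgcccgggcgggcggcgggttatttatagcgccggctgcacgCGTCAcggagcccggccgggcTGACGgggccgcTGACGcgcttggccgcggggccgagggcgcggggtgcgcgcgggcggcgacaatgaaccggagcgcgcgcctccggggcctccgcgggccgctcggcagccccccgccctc
*Nr4a3*: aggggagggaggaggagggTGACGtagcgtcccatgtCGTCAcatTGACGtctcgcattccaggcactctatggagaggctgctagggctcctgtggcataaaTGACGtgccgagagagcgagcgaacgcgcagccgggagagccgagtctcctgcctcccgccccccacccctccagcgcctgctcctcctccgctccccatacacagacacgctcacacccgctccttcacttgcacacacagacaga
*Egr2*: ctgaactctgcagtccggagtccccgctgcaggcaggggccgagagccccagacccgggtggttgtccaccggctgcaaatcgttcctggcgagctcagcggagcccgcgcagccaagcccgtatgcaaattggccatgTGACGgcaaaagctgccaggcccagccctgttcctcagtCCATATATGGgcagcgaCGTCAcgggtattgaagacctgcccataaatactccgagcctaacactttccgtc

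*Nr4a1*, *Nr4a2* and *Nr4a3* each held 4 half-sites in these windows, and *Egr2* held 2. Those of *Nr4a1* began 233, 213, 69 and 40 bases before the start site. In *Nr4a2* they began 200, 144, 123 and 111 bases before it, and in *Nr4a3* 231, 213, 205 and 147 bases before it. Of 32817 windows of the same length in the RefSeq table, 17.7% held at least 1 half-site, 3.9% at least 2 and 0.137% at least 4. The CArG box of *Egr2*, CCATATATGG, began 72 bases before the start site, between half-sites that began at 111 and 55 bases, and 1.47% of all windows held a CArG box. The *Nr4a1* window also held the EGR site GCGGGGGCG, on the other strand and 60 bases before the start site, a match found in 2.57% of windows. Neither the whole cyclic AMP response element TGACGTCA, in 1.55% of all windows, nor the NR4A site AAAGGTCA, in 1.34%, nor the EGR site GCGTGGGCG, in 0.536%, was in any of the 4 windows. Both strands were searched, and the half-site is a part of the whole element. These matches describe letters and are not measured binding sites.

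The table held 31776 cells with 500 to 133658 UMIs (unique molecular identifiers, each counting 1 captured RNA molecule), and its log values gave back whole UMIs. Sets 1, 2 and 3 had 10384, 9917 and 11475 cells at median depths of 6093, 6352 and 6524 UMIs. Cells were put in a class by the levels of fixed marker genes, averaged over each cell and its neighbours, which left 31.8% of cells ungated. Granulosa-marker cells numbered 2709, 2505 and 1539 in sets 1, 2 and 3, theca-marker cells 1306, 440 and 762, luteal-marker cells 238, 130 and 910, and stroma-marker cells 2344, 2168 and 3195. Smooth muscle, pericyte, endothelial and myeloid classes had 364 to 1692 cells each over the table. The classes did not hold the same clusters in every set. The summed level of the 12 granulosa markers had a median of 212, 193 and 50.1 UMIs per 10000 in granulosa-marker cells of sets 1, 2 and 3, and 712 of the 910 luteal-marker cells of set 3 lay in a cluster led by *Npy*, *Lyve1* and *Comp*. Luteal-marker cells of that set had a granulosa marker median of 58.9, above that of its granulosa-marker cells, so the luteal class is not a single population across sets. Theca-marker cells had theca marker medians of 178, 135 and 57.1 and stroma-marker cells stroma marker medians of 52.6, 50.2 and 19.3, with smooth muscle markers at 2.71, 6.87 and 15.8 in the latter, so the theca and stroma classes of set 3, too, held less of their own markers. Of the granulosa-, theca- and stroma-marker cells, 2649, 487 and 2354 lay near the threshold, inside the gate used and outside a stricter one. The sets shared 27 to 46 barcodes in pairs, and the median share of mitochondrial UMIs in a cell was 3.95%, 4.42% and 2.93% and the median number of genes 2436, 2255 and 2491 in sets 1, 2 and 3. Set 2, where the members were highest, thus had the highest mitochondrial share and the fewest genes per cell, and the part of this in the results was not tested.

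Each of the 6 members was at its highest level over all cells in set 2. A level is the summed UMIs of a gene per 10000 summed UMIs. *Nr4a3* had 308, 6431 and 462 UMIs in sets 1, 2 and 3, which gave levels of 0.0379, 0.882 and 0.0539 and a level 23.3-fold higher (20.8 to 26.2) in set 2 than in set 1. *Nr4a2* was at 0.186, 1.20 and 0.230, a ratio of 6.45 (6.11 to 6.82). *Nr4a1* was at 1.17, 4.46 and 0.797, a ratio of 3.80 (3.72 to 3.89). Among the EGR genes, *Egr3* was at 0.217, 0.874 and 0.314, and was 4.02-fold higher in set 2 than in set 1 (3.81 to 4.24). *Egr2* was at 0.464, 1.04 and 0.536, a ratio of 2.24 (2.15 to 2.32). *Egr1* was at 9.75, 16.6 and 10.0, and had the smallest ratio of the 6, 1.70 (1.68 to 1.71). The order of these ratios put the 3 NR4A genes and *Egr3* above *Egr2* and *Egr1*.

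All 6 members were higher in set 2 than in set 1 by more than counting error. So were 22% of the 10868 genes with a level of at least 0.05 in at least 1 of the 2 sets, and 67.7% of genes were lower. All but *Egr1*, that is 5 members, were at least 2-fold higher, against 3.74% of genes. Against set 3, all 6 members were higher in set 2, as were 34.7% of 10675 genes, and 4 members (*Nr4a1*, *Nr4a2*, *Nr4a3* and *Egr3*) were at least 2-fold higher, against 7.08%. The ratios of set 2 over set 3 were 16.4 (14.9 to 18.03) for *Nr4a3*, 5.59 (5.45 to 5.74) for *Nr4a1* and 5.20 (4.95 to 5.47) for *Nr4a2*. For *Egr3* it was 2.78 (2.66 to 2.91), for *Egr2* 1.93 (1.87 to 2.01) and for *Egr1* 1.66 (1.64 to 1.67). *Nr4a3* passed the low-value filter, a level of at least 0.05 in 1 of the 2 sets compared, against set 1 through set 2 alone. The median log2 ratio over all genes was -0.28 for set 2 over set 1 and -0.16 for set 2 over set 3, and that of the members was 1.97 and 1.93.

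For the members, sets 1 and 3 were closer to each other than to set 2. *Nr4a1* was lower in set 3 than in set 1, with a ratio of 0.680 (0.659 to 0.701), where 51.2% of 10936 genes were lower. The other 5 members were higher in set 3, where 37% of genes were higher, with ratios from 1.03 (1.02 to 1.04) for *Egr1* to 1.45 (1.36 to 1.54) for *Egr3*. No member was 2-fold higher or lower in set 3 than in set 1, against 5.13% and 9.78% of genes. These shares of genes were larger than the 3.74% and 6.26% for set 2 over set 1. The median log2 ratio of set 3 over set 1 was -0.10 over all genes and 0.26 over the members.

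**Figure D1:**
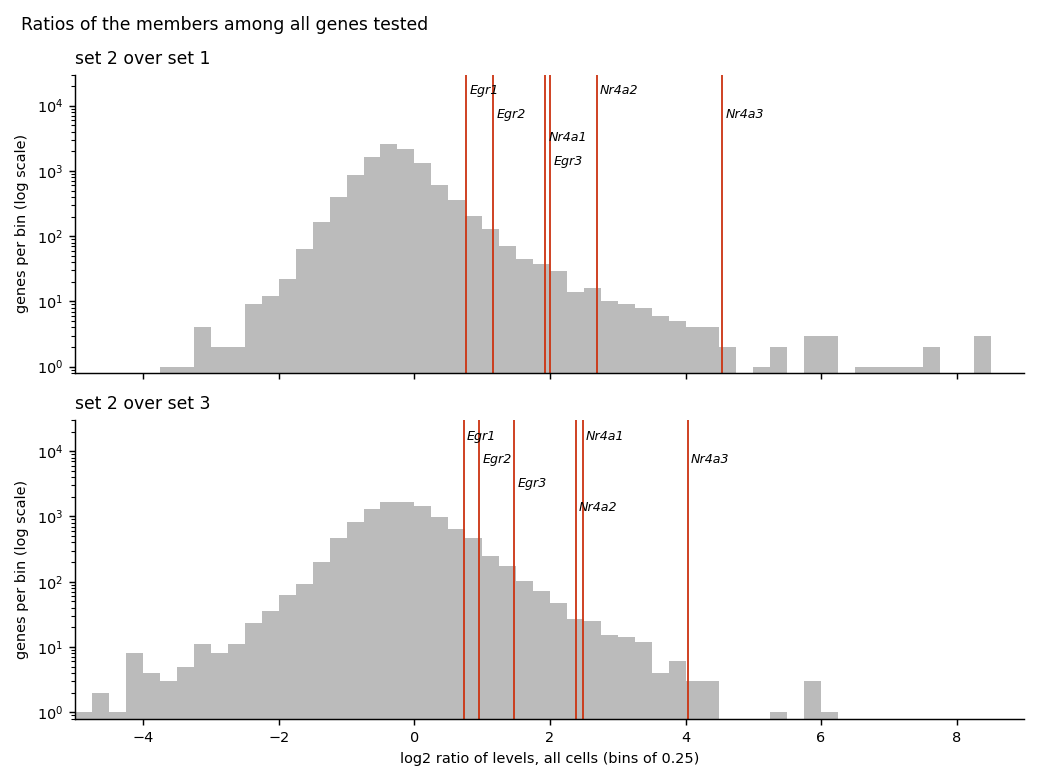
Grey bars count genes (log scale) by the log2 ratio of their levels over all cells, set 2 over set 1 above and set 2 over set 3 below, and red lines mark the 6 members. The NR4A lines and that of *Egr3* lie in the right tail in both panels, with *Nr4a3* farthest out, while *Egr1* lies nearest to the bulk of genes, above 94.5% of genes in the upper panel and 88.2% in the lower one.

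In granulosa-marker cells *Nr4a1*, known as a cyclic AMP-responsive receptor gene, had 1958, 11634 and 987 UMIs in sets 1, 2 and 3, at levels of 0.912, 5.78 and 0.738. Set 2 was 6.34-fold higher (6.04 to 6.66) than set 1 and 7.84-fold higher (7.34 to 8.37) than set 3. Theca-marker cells gave nearly the same values, 0.971, 5.87 and 0.762, and their ratio of 6.04 (5.68 to 6.43) to set 1 had an interval that overlapped that of granulosa-marker cells. In stroma-marker cells the levels were 1.59, 3.16 and 1.10 and the ratio 1.98 (1.87 to 2.09). Luteal-marker cells were at 1.33, 2.54 and 0.432, and endothelial-marker cells at 0.851, 2.15 and 0.473. Pericyte-marker cells were at 1.56, 3.85 and 0.701, smooth muscle-marker cells at 0.846, 2.46 and 0.642, and myeloid-marker cells at 0.829, 1.75 and 1.13. In set 2 theca- and granulosa-marker cells stood at the top without a difference beyond counting error, followed by pericyte, then stroma, then luteal and smooth muscle together, then endothelial and last myeloid cells. In set 1 the order was another one, since the stroma level was above that of granulosa- and theca-marker cells there. The ratio of granulosa over stroma in set 2 was 1.83 (1.77 to 1.90).

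*Nr4a2*, the receptor gene known best for its role in dopamine neurons, was at 0.103, 1.24 and 0.138 in granulosa-marker cells of sets 1, 2 and 3, so that set 2 was 12.0-fold higher (10.5 to 13.9) than set 1. In theca-marker cells it was at 0.217, 1.74 and 0.205, a ratio of 8.03 (7.08 to 9.12). In stroma-marker cells, at 0.191, 0.536 and 0.421, set 3 stood at 2.20 times set 1 (1.90 to 2.56) and set 2 at only 1.27 times set 3 (1.15 to 1.41). Endothelial-marker cells were at 0.348, 0.4995 and 0.324, with a ratio of set 2 over set 1 of 1.44 (1.16 to 1.79). Pericyte-marker cells were at 0.0610, 0.572 and 0.331, smooth muscle-marker cells at 0.140, 0.596 and 0.293, and luteal-marker cells at 0.167, 0.293 and 0.0532. In myeloid-marker cells, at 0.282, 0.276 and 0.547, set 3 was highest. Myeloid cells were not alike across sets. Set 3 had a myeloid cluster of 96 cells led by *S100a9* and *S100a8*, and set 2 an unnamed cluster of 23 cells led by the same genes. The mean of *Nr4a2* over cells was 0.829 UMIs per 10000 in that cluster of set 3 and 0.906, from 4 UMIs, in that of set 2. In the myeloid clusters with *C1qa* among their leading genes this mean was 0.344, 0.445 and 0.455 in sets 1, 2 and 3. The set 2 order ran from theca to granulosa, then smooth muscle, pericyte, stroma and endothelial cells without differences between neighbours, and then luteal and myeloid cells.

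*Nr4a3* was at low levels in sets 1 and 3. It had 40, 1894 and 37 UMIs in granulosa-marker cells of sets 1, 2 and 3, at levels of 0.0186, 0.942 and 0.0277, and set 2 was 50.5-fold higher (37.0 to 71.0) than set 1 and 34.0-fold higher (24.6 to 48.5) than set 3, or 64.3-fold with cells thinned to 3000 UMIs. In theca-marker cells it was at 0.0516, 2.32 and 0.0463, and set 2 was 44.8-fold higher (35.8 to 56.9) than set 1 and 50.04-fold higher (35.3 to 73.5) than set 3. Theca-marker cells thus led set 2, and the granulosa level was 0.407 times theirs (0.378 to 0.437). Stroma-marker cells were at 0.0572, 0.454 and 0.0905, with a ratio of 7.93 (6.15 to 10.4). Luteal-marker cells were at 0.0103, 0.395 and 0.0360, from 5, 85 and 23 UMIs. Pericyte-marker cells were at 0.0977, 0.546 and 0.0765. Smooth muscle-marker cells had 1, 57 and 16 UMIs, and the ratio of set 2 over set 1 was 49.3 with an interval from 8.50 upward. The endothelial level was 0.140 in set 2 from 68 UMIs, against 0.0309 from 12 UMIs in set 1 and 2 UMIs in set 3. Myeloid-marker cells had 0 UMIs in set 1, where the upper limit of the level was 0.0612, and 11 UMIs in each of sets 2 and 3, at 0.152 and 0.1504. Myeloid and endothelial cells were therefore lowest in set 2, and did not differ from each other beyond counting error.

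*Egr1*, which encodes the best studied EGR factor, was at 6.98, 16.4 and 8.56 in granulosa-marker cells of sets 1, 2 and 3, and set 2 was 2.34-fold higher (2.299 to 2.39) than set 1. Theca-marker cells were at 9.63, 17.0 and 8.37, a ratio of 1.77 (1.72 to 1.82). Stroma-marker cells had its highest class level in set 1, 15.4, and in set 2, 21.4, with 11.04 in set 3, and their ratio of set 2 over set 1 was 1.39 (1.36 to 1.41). Luteal-marker cells were at 8.30, 9.29 and 12.8, so that set 3 was highest there. Pericyte-marker cells were at 13.3, 16.8 and 9.93, and smooth muscle-marker cells at 7.68, 13.7 and 6.95. The level was lowest in endothelial-marker cells of set 2, at 6.52, with 5.04 in set 1 and 3.47 in set 3, and myeloid-marker cells were at 4.76, 7.78 and 3.85. In set 2 the stroma level was followed by theca, pericyte and granulosa levels, whose neighbours did not differ beyond counting error.

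*Egr2*, known for its role in Schwann cell myelination, was at 0.413, 0.803 and 0.429 in granulosa-marker cells, a ratio of 1.95 (1.79 to 2.11) for set 2 over set 1. Theca-marker cells were at 0.441, 1.18 and 0.564, a ratio of 2.68 (2.40 to 2.99), and stroma-marker cells at 0.545, 1.61 and 0.554, a ratio of 2.95 (2.69 to 3.22). Stroma stood above every other class in set 2, and the granulosa level was 0.4997 times that of stroma (0.468 to 0.534). Pericyte-marker cells were at 0.549, 1.27 and 0.382, smooth muscle-marker cells at 0.271, 0.504 and 0.236, and myeloid-marker cells at 0.365, 0.579 and 0.451. In luteal-marker cells, at 0.447, 0.418 and 0.703, set 2 was not above set 1. The endothelial level was the lowest in all 3 sets, 0.121, 0.206 and 0.0910.

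*Egr3*, another member with a zinc-finger domain close to that of *Egr1*, was at 0.119, 0.545 and 0.195 in granulosa-marker cells, a ratio of 4.57 (3.99 to 5.26) for set 2 over set 1. In theca-marker cells it was at 0.228, 1.54 and 0.194, with ratios of 6.74 (5.95 to 7.66) over set 1 and 7.94 (6.61 to 9.61) over set 3. Stroma-marker cells were at 0.236, 1.06 and 0.309, a ratio of 4.48 (3.93 to 5.11), and smooth muscle-marker cells at 0.0575, 0.724 and 0.157. Pericyte-marker cells were at 0.317, 0.831 and 0.255, endothelial-marker cells at 0.247, 0.595 and 0.226, and myeloid-marker cells at 0.398, 0.662 and 0.109. Luteal-marker cells, at 0.478, 0.502 and 0.576, showed no difference beyond counting error between sets 1 and 2. In set 2 the theca level was above all others, and no neighbouring pair below it differed beyond counting error. The granulosa level of *Egr3* was 0.354 times the theca level (0.323 to 0.389) and 0.515 times the stroma level (0.475 to 0.558).

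**Figure D2:**
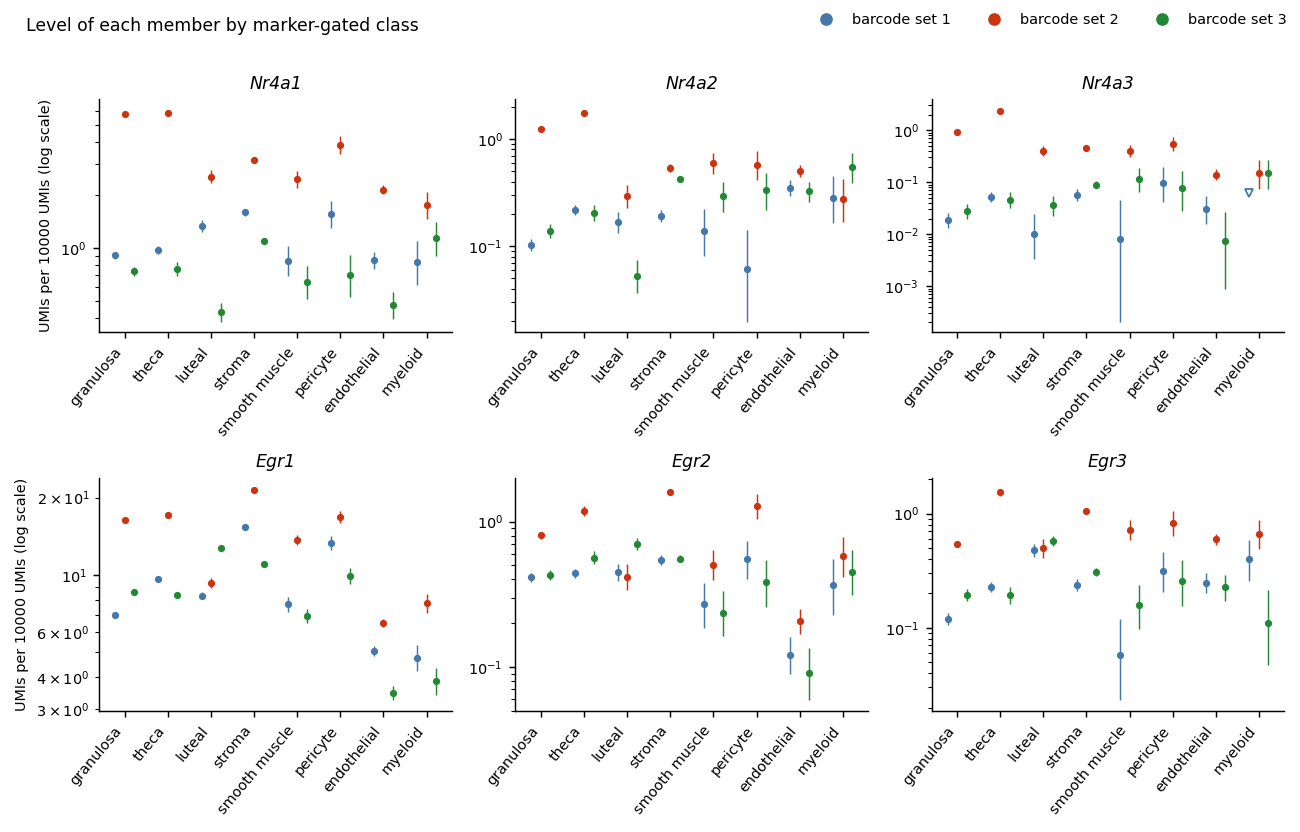
Levels of the 6 members in UMIs per 10000 (log scale) are plotted by marker class for barcode sets 1, 2 and 3, with bars for the 95% Poisson interval and open triangles at the upper limit where a class had 0 UMIs. Set 2 lies above both other sets in the granulosa and theca classes of every panel, with the widest gap for *Nr4a3*, and in the luteal class set 3, not set 2, is highest for the EGR genes.

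Over the 8 classes, 44 of the 48 pairs of member and class had their highest level in set 2, as had 20.6% of the 80342 pairs of gene and class past the low-value filter in any set. For *Nr4a3* in granulosa-, luteal- and endothelial-marker cells this had to be so, since these pairs passed the filter through set 2 alone, and in myeloid-marker cells *Nr4a3* had 11 UMIs in both sets 2 and 3. The exceptions were *Egr1*, *Egr2* and *Egr3* in luteal-marker cells and *Nr4a2* in myeloid-marker cells. In granulosa-marker cells all 6 members were higher in set 2 than in set 1, as were 16.8% of 10336 genes, and 5 were at least 2-fold higher, against 5.66%. Against set 3 all 6 were higher, as were 23.4% of 10217 genes, and 4 were at least 2-fold higher, against 8.12%. The median log2 ratio over all genes was -0.51 and -0.39 in these 2 comparisons, and that of the members 2.43 and 2.23. In theca-marker cells the 6 were again higher in set 2, where 15.8% of genes were higher than in set 1 and 19.2% higher than in set 3. All but *Egr1* were at least 2-fold higher than in set 1, against 6.73% of genes. All 6 were at least 2-fold higher than in set 3 there, against 7.94% of genes. In stroma-marker cells 4 members (*Nr4a2*, *Nr4a3*, *Egr2* and *Egr3*) were at least 2-fold higher than in set 1, against 1.91% of genes. In luteal-marker cells only *Nr4a3* was at least 2-fold higher than in set 1, against 3.35%. Against set 3 the 3 NR4A genes were at least 2-fold higher there, against 11.6% of genes, and *Egr1* and *Egr2* were lower, as were 41.1% of genes. *Nr4a3* passed the low-value filter through set 2 alone in granulosa-marker cells against both other sets, in theca-marker cells against set 3 and in luteal-marker cells against both, so it had to differ there and its part in these counts is no result.

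The clusters of each set were looked at next, since they use no markers and the 6 members took no part in the clustering. Of the 59 clusters with at least 50 cells, sets 1, 2 and 3 had 20, 20 and 19. *Nr4a3* ranged from 0 to 0.0845 over clusters of set 1 (median 0.0352), from 0.118 to 2.32 over those of set 2 (median 0.573) and from 0 to 0.315 over those of set 3 (median 0.0430). Every cluster of set 2 was therefore above every cluster of set 1 for *Nr4a3*, the only member for which this held, and one that passed the low-value filter in that comparison through set 2 alone. Over all genes it held for 15 of 10868, or 0.138%, among them *Areg* and *Ereg*, which encode EGF-like ligands, and *Tnfaip6*, a gene of the cumulus matrix. Against set 3 it held for 6 genes, or 0.0562%, and for no member. For *Nr4a1*, 19 of the 20 clusters of set 2 were above the highest cluster of set 1, where the levels had a median of 1.06 and reached 2.15. For *Nr4a2*, *Egr3*, *Egr2* and *Egr1* the numbers were 16, 15, 10 and 2. Against the highest cluster of set 3 they were 16 for *Nr4a1*, 6 for *Nr4a2* and 12 for *Nr4a3*, and 13, 13 and 14 for *Egr1*, *Egr2* and *Egr3*. For the NR4A genes that highest cluster was the one led by *S100a9* and *S100a8*.

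Within set 2, *Nr4a1* lay in 2 ranges. It was at 5.63 to 7.22 in 7 clusters, and the next was at 4.12. Granulosa markers named 5 of these 7, among them the highest, led by *Tnfsf11*, *Comp* and *Flrt3*, 1 was the theca cluster led by *Cyp17a1*, and 1 was unnamed and led by *Rnase1* and *Pik3ip1*. *Nr4a2* peaked elsewhere, at 3.67 in a granulosa cluster led by *Ihh*, *Edn2* and *Grem1*, and was at 0.708 in the cluster where *Nr4a1* was highest. *Nr4a3* was highest in the theca cluster, at 2.32, and lowest, at 0.118, in a granulosa cluster led by *Kctd14* and *Gatm*. *Egr2* and *Egr3* were both highest, at 2.42 and 1.88, in an unnamed cluster led by *Col15a1* and *Adamts4*. *Egr1* was highest in a stroma cluster led by *Tcf21* and *Frem1*, at 22.7, close to the 21.1 of a set 1 stroma cluster led by *Col12a1* and *Frem1*. In set 3 the highest levels of all 3 NR4A genes were in a cluster of 96 cells led by the myeloid genes *S100a9*, *S100a8* and *Il1b*. *Nr4a1*, *Nr4a2* and *Nr4a3* were at 2.42, 0.980 and 0.315 there, from 69, 28 and 9 UMIs. The cluster of set 2 led by *S100a9* and *S100a8*, with 23 cells, was too small to be among the clusters compared. The other myeloid cluster of set 3, led by *C1qa*, had 8 UMIs of *Nr4a3*, and these ranks were not held against counting error. The highest levels of the 3 EGR genes in set 3 were in the cluster led by *Npy*, *Lyve1* and *Comp*.

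**Figure D3:**
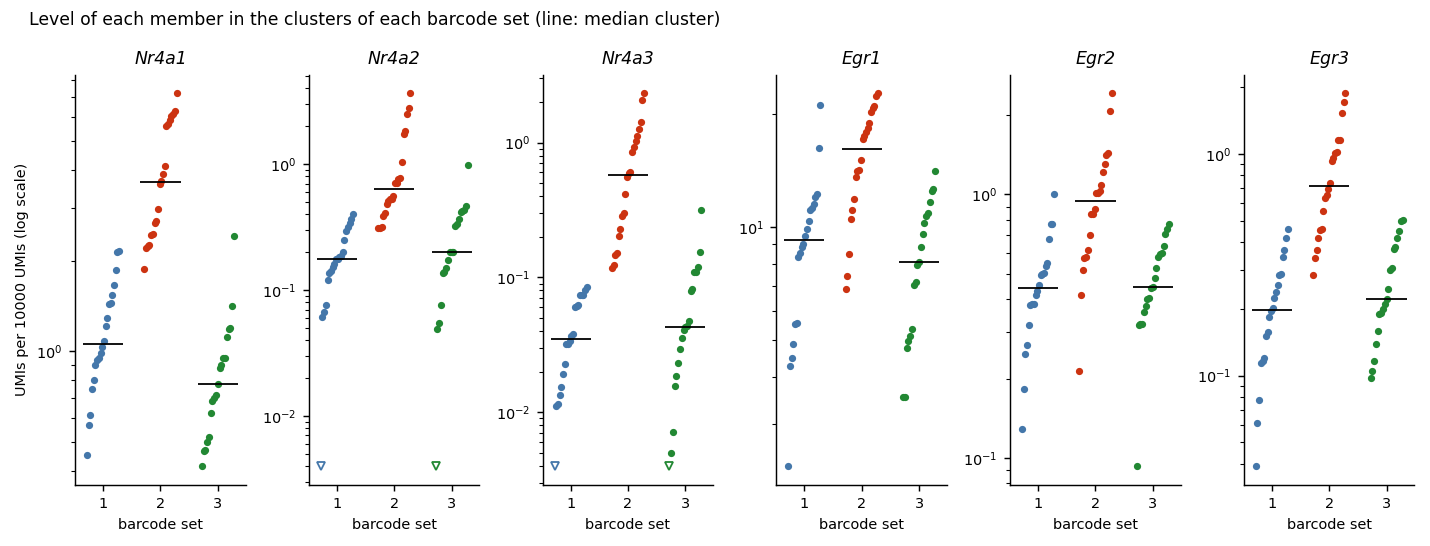
Each point is a cluster of at least 50 cells, plotted by its level in UMIs per 10000 (log scale) for each barcode set, with a line at the median cluster and open triangles at the bottom for clusters with 0 UMIs. The points of set 2 for *Nr4a3*, from 0.118 to 2.32, lie wholly above those of set 1, while those of *Egr1* overlap widely between sets.

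Free RNA in droplets can place UMIs of a gene in cells that do not express it, and the granulosa gene *Inha*, which encodes an inhibin subunit, and *Areg* give the scale of it. In set 2 *Inha* in stroma, smooth muscle, pericyte and endothelial classes was at 3.21% to 4.65% of its granulosa level, and *Areg* at 3.11% to 10.96%. In the same classes *Nr4a1* was at 37.1% to 66.5% of its granulosa level, and *Nr4a3* at 43.0% to 57.9% in the stroma, smooth muscle and pericyte classes and at 14.9% in the endothelial class. *Nr4a3* in myeloid-marker cells, at 16.1% (8.03% to 28.9%), was not above the 18.1% of *Areg* there. *Nr4a2* there, at 22.3% (13.6% to 34.4%), had an interval that held this value of *Areg*. By *Areg*, neither level is told apart from free RNA. *Inha* was at 10.6% in myeloid-marker cells, within the interval of *Nr4a3* and below that of *Nr4a2*. In the other classes *Nr4a2* was at 23.6% of its granulosa level in luteal-marker cells, 40.3% to 48.1% in the stroma, smooth muscle, pericyte and endothelial classes, and 140% in theca-marker cells. *Egr1*, *Egr2* and *Egr3* in the endothelial class were at 39.9%, 25.7% and 109% of their granulosa levels.

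Granulosa-marker cells were divided by further markers. Mural antral cells, gated on the mean score of *Lhcgr*, *Cyp19a1* and *Nppc* scaled within a set, numbered 989, 912 and 63 in sets 1, 2 and 3. Preantral cells, gated on *Amh* and other markers, numbered 171, 199 and 345. Over all granulosa-marker cells *Lhcgr* was at 1.44, 0.627 and 0.0299 and *Cyp19a1* at 3.16, 6.60 and 0.102 in sets 1, 2 and 3. The mural antral name is therefore not shown to hold for the 63 cells of set 3. In mural antral cells *Nr4a1* was at 0.745, 7.01 and 1.06, and set 2 was 9.42-fold higher (8.60 to 10.3) than set 1. In preantral cells it was at 2.92, 3.76 and 1.09, and the ratio was 1.29 (1.13 to 1.47). The preantral level was thus the higher of the 2 in set 1 and the lower in set 2. *Nr4a2* in mural antral cells was at 0.0663, 0.914 and 0.0558, a ratio of 13.8 (10.2 to 19.0), and the ratio in preantral cells was 1.80 (1.20 to 2.75). *Nr4a3* was at 0.0183 and 1.24 in mural antral cells of sets 1 and 2, a ratio of 67.7 (39.3 to 128), with 0 UMIs in the 63 cells of set 3, which allows a level of up to 0.0686. Preantral cells had it at 0.0292, 0.167 and 0.0521, a ratio of 5.71 (1.97 to 22.6).

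For the EGR genes, too, the ratio of set 2 over set 1 was larger in mural antral than in preantral cells. *Egr1* was at 5.76, 18.1 and 13.4 in mural antral cells, a ratio of 3.14 (3.03 to 3.25), and at 15.2, 17.96 and 11.4 in preantral cells, a ratio of 1.18 (1.12 to 1.25). *Egr2* and *Egr3* had ratios of 2.78 (2.37 to 3.28) and 5.01 (3.89 to 6.52) in mural antral cells, and of 1.28 (1.03 to 1.59) and 1.97 (1.43 to 2.74) in preantral cells. The preantral levels of *Egr2*, 1.09, 1.39 and 0.540, and of *Egr3*, 0.423, 0.833 and 0.227, were above those of mural antral cells in both sets 1 and 2. For all 6 members the intervals of the ratio of set 2 over set 1 did not overlap between the 2 subsets. The share of all genes for which this holds was not computed, so the count is not read as a result about the members. *Nr4a3*, at 0.0183 in mural antral and 0.0292 in preantral cells of set 1, was under the low-value level of 0.05 there in both subsets. The 63 cells of set 3 in the mural antral gate, for which that name is not shown to hold, were closer to set 2 than to set 1 for the EGR genes. *Egr3* was at 0.106, 0.530 and 0.484 and *Egr2* at 0.295, 0.821 and 0.744 in sets 1, 2 and 3, with ratios of set 2 over set 3 of 1.10 (0.735 to 1.70) and 1.10 (0.799 to 1.56), and that of *Egr1* was 1.34 (1.25 to 1.45).

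Mitotic granulosa cells, marked by *Top2a* and *Mki67*, numbered 397, 314 and 280, and had ratios of set 2 over set 1 of 8.32 (7.41 to 9.37) for *Nr4a1*, 12.9 (9.15 to 18.7) for *Nr4a2* and 47.1 (23.6 to 110) for *Nr4a3*, with intervals that overlapped those of mural antral cells. The ratio of *Egr3*, 5.78 (3.85 to 8.94), also overlapped that of mural antral cells. Those of *Egr1*, 2.55 (2.43 to 2.68), and *Egr2*, 1.54 (1.26 to 1.90), lay below the mural antral intervals, and that of *Egr2* overlapped the preantral one. Cells with markers of atretic follicles, 413, 315 and 109 in number, had *Nr4a2* at 0.189, 2.75 and 0.117, the highest subset level in set 2 but not in sets 1 and 3, a ratio of 14.5 (10.99 to 19.6). Their *Nr4a3* was at 0.0140, 1.31 and 0.0260, a ratio of 93.2 (36.0 to 345), and their *Egr3* at 0.133, 0.966 and 0.117. Cells with markers of the expanding cumulus, *Ptx3*, *Has2* and *Tnfaip6*, numbered 0, 300 and 115, so only sets 2 and 3 could be compared. *Nr4a1* was at 4.98 in set 2 and 0.450 in set 3 there, a ratio of 11.1 (8.66 to 14.4), while *Egr3*, at 0.421 and 0.436, did not differ beyond counting error. Because the subsets were gated on genes that differ between the sets, their sizes are not read as results.

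**Figure D4:**
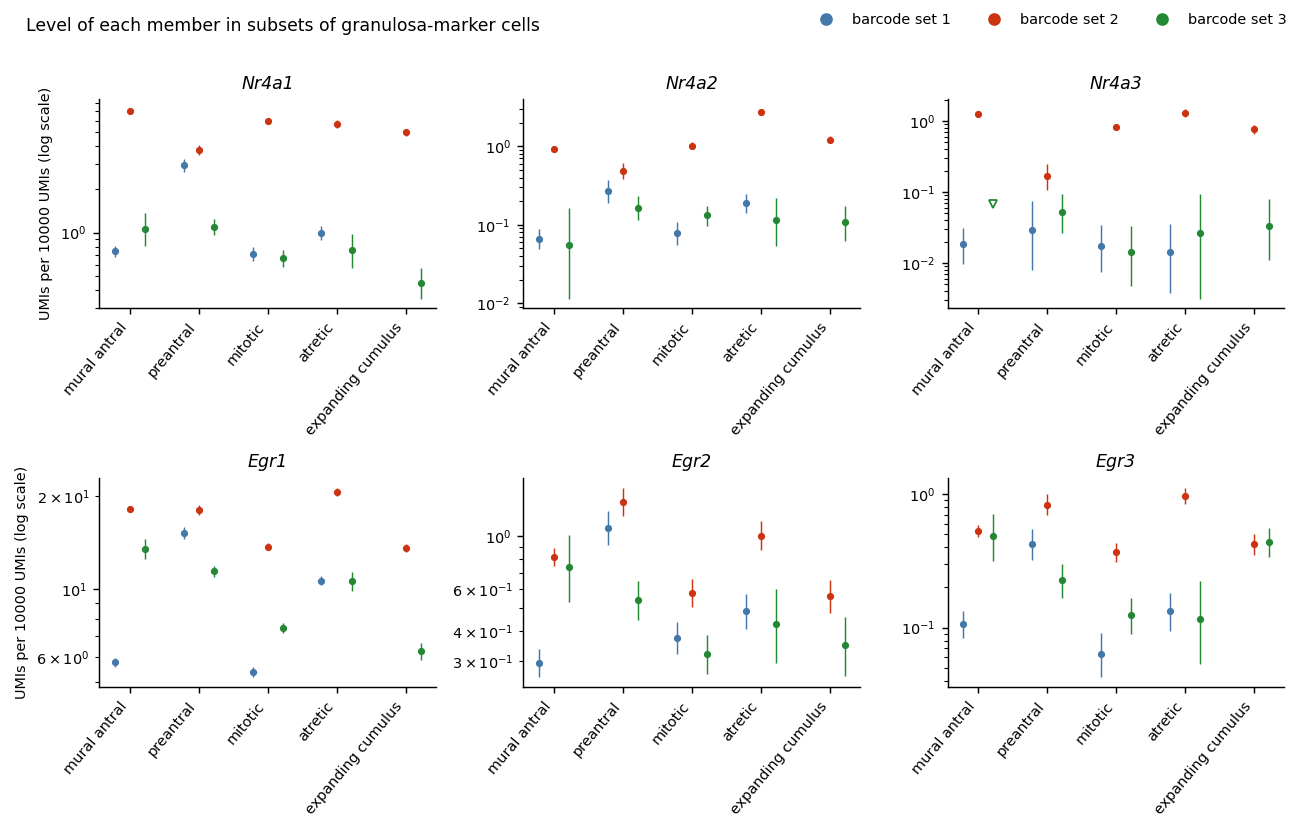
Levels of the 6 members in UMIs per 10000 (log scale) in subsets of granulosa-marker cells are plotted for barcode sets 1, 2 and 3, with 95% Poisson intervals and an open triangle at the upper limit where a subset had 0 UMIs. In preantral cells sets 1 and 2 lie close together for *Nr4a1* (2.92 and 3.76), while in mural antral cells they lie far apart (0.745 and 7.01).

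Levels do not say how many cells carry a message, so each cell was thinned to 3000 UMIs, which left out 1075, 976 and 991 shallower cells of sets 1, 2 and 3. *Nr4a1* then had a UMI in 24.9%, 64.8% and 20.6% of cells of sets 1, 2 and 3 (40.4%, 78.2% and 36.2% without thinning). *Nr4a2* had one in 4.93%, 21.02% and 5.73% (9.90%, 31.7% and 11.6%), and *Nr4a3* in 1.01%, 18.5% and 1.61% (2.53%, 30.2% and 3.56%). For *Egr1* the shares were 74.9%, 93.9% and 84.6% (82.5%, 95.1% and 91.1%). *Egr2* had a UMI in 11.5%, 24.4% and 13.5% of cells (21.8%, 40.3% and 25.6%) and *Egr3* in 4.91%, 20.1% and 8.41% (10.97%, 33.8% and 16.9%). Every member was thus found in the largest share of cells in set 2, with and without thinning. How many of all genes have this order of shares was not computed.

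Among granulosa-marker cells thinned in this way, a UMI of *Nr4a1* was found in 18.1%, 79.1% (77.4% to 80.7%) and 19.4% in sets 1, 2 and 3. For *Nr4a3* the shares were 0.617%, 21.7% (20.1% to 23.4%) and 0.479%, and in theca-marker cells 1.63%, 38.6% (34.0% to 43.3%) and 0.966%. No class was named in advance as lacking these genes. The lowest set 2 share of *Nr4a3* was 3.19% (1.93% to 4.93%), in endothelial-marker cells, whose median depth was 5150 UMIs before thinning, against 7141 UMIs for granulosa-marker and 11245 UMIs for theca-marker cells. *Nr4a1* had a UMI in 231 of the 596 thinned endothelial-marker cells of set 2. Counted together, no member was seen in 28.6%, 1.07% and 13.8% of granulosa-marker cells of sets 1, 2 and 3, and at least 3 members were seen in 5.40%, 48.6% and 5.61%. In theca-marker cells at least 3 were seen in 9.86%, 67.2% and 9.38%, and in stroma-marker cells in 11.1%, 37.7% and 12.1%. Endothelial-marker cells reached 12.8% in set 2, and 19.0% of them still showed no member. In granulosa-marker cells of set 2, pairs of members were seen together at 1.00 to 1.35 times the product of their shares. The shares with at least 3 members are therefore not read as joint expression.

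**Figure D5:**
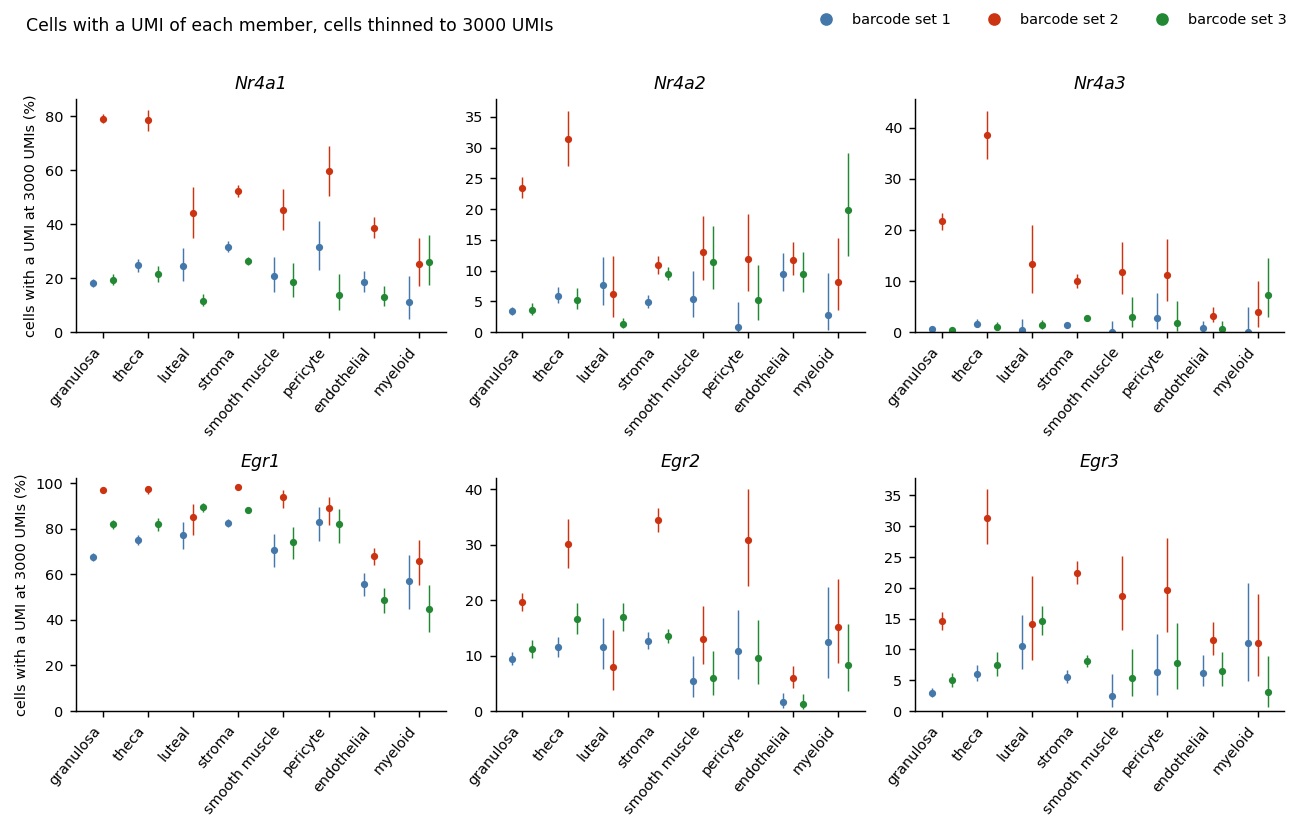
The share of cells with a UMI of each member, after thinning to 3000 UMIs, is plotted by marker class for barcode sets 1, 2 and 3 with exact 95% binomial intervals. In set 2 *Nr4a1* reached 79.1% of granulosa-marker and 78.5% of theca-marker cells, and *Nr4a3* reached 38.6% of theca-marker but 3.19% of endothelial-marker cells.

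The highest number in a cell of set 2 was 40 UMIs for *Nr4a1*, 30 for *Nr4a2* and 23 for *Nr4a3*. Theca-marker cells held a larger part of the *Nr4a3* UMIs than of all UMIs in set 2, 19.0% (18.1% to 19.998%) against 7.25%. Granulosa-marker cells held 35.8% (35.3% to 36.3%) of the *Nr4a1* UMIs and 27.6% of all UMIs there. The stroma class held 27.2% (26.2% to 28.2%) of *Egr2* UMIs and 22.6% of *Egr1* UMIs, against 17.5% of all UMIs, but only 7.84% of *Nr4a2* UMIs. Ungated cells of that set held 47.7% of *Nr4a2* UMIs, against 33.6% of all UMIs. In set 3 the NR4A genes were weighted toward stroma instead, which held 36.7% of *Nr4a1*, 48.5% of *Nr4a2* and 44.6% of *Nr4a3* UMIs, against 26.6% of all UMIs. This was not confined to set 3. In set 1 stroma held 19.6% of *Nr4a1*, 14.8% of *Nr4a2* and 21.8% of *Nr4a3* UMIs, against 14.4% of all UMIs.

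Other genes were ranked by the Pearson correlation of their log2 levels with those of each member over the 24 combinations of class and set, among 12442 genes, which is a description, since the points share 3 sets and no more. *Nr4a1* was most like *Btg2* (r = 0.90), an antiproliferative immediate early gene, *Nr4a3* (0.88), *Ell2* (0.88), which encodes an elongation factor of RNA polymerase II, *Gadd45b* (0.85) and *Gpcpd1* (0.85). *Nr4a3* was most like *Pde10a* (0.92), a cyclic nucleotide phosphodiesterase gene, *Areg* (0.90), *Coq10b* (0.89), *Nr4a1* (0.88) and *Ell2* (0.87). *Nr4a2* was most like *Sub1* (0.85), *Sik1* (0.79), *Nr4a3* (0.78), *Mpp7* (0.78) and *Srxn1* (0.77). Among the EGR genes, *Egr1* was most like *Sgtb* (0.85), *Msi1* (0.83), *Ier2* (0.83), *Camk2n1* (0.82) and *Egr2* (0.82). *Egr2* was most like *Cebpb* (0.89), *Irs2* (0.85), *Egr1* (0.82), *Gadd45b* (0.77) and *Pex5* (0.76), and *Egr3* like *Midn* (0.81), *Nab2* (0.76), *Pde10a* (0.73), *Arc* (0.73) and *Btg2* (0.73). Between members r ran from 0.21, for *Nr4a2* with *Egr1*, to 0.88, for *Nr4a1* with *Nr4a3*.

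The corepressors NAB1 and NAB2 bind EGR proteins and dampen them. *Nab2*, itself known as an EGR target gene, was at 0.268, 1.44 and 0.524 over all cells of sets 1, 2 and 3, a ratio of 5.38 (5.14 to 5.64) for set 2 over set 1. *Nab1* was at 0.469, 0.700 and 0.573, a ratio of 1.49 (1.43 to 1.56). Of the receptors *Nr5a1* and *Nr5a2*, which bind sites like that of NR4A monomers, *Nr5a1* was at 0.600, 0.264 and 0.289 and *Nr5a2*, a granulosa gene, at 4.16, 5.05 and 1.35. The corepressor pair was thus highest in set 2, and *Nr5a1* was highest in set 1.

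Of 30 other immediate early genes, 29 were measured over all cells in sets 1 and 2, and 12 of them were at least 2-fold higher in set 2 and 0 lower, against 3.74% and 6.26% of all genes. Their median ratio was 1.89. Against set 3, 13 of 29 were at least 2-fold higher and 0 lower, against 7.08% and 8.91% of all genes, with a median of 1.43. In granulosa-marker cells 18 of 30 were at least 2-fold higher in set 2 than in set 1 and 0 lower, against 5.66% and 21.8% of all genes, with a median of 2.53. There *Fosl1*, at 0.000932 in set 1, and *Arc*, at 0.00792, passed the low-value filter through set 2 alone. *Arc* did so over all cells, too, against both other sets. These genes had to be higher in set 2, and their part in the counts is no result. Among those at least 4-fold apart between 2 sets over all cells, and with levels over all cells, *Crem*, a gene for cyclic AMP-responsive activators and repressors, was at 0.161, 2.78 and 0.342, a ratio of 17.3 (16.3 to 18.3). *Sik1*, a kinase gene that acts in cyclic AMP feedback, was at 0.221, 1.54 and 0.228, and *Rgs2*, a regulator of G protein signaling, at 2.40, 14.3 and 6.67. *Gadd45b* was at 1.30, 5.55 and 1.22, *Arc* at 0.0138, 0.113 and 0.0336, and *Egr4*, the last EGR gene, at 0.158, 0.4997 and 0.0915. *Fosl1*, at 0.00270, 0.0409 and 0.0408, was high in sets 2 and 3 alike and did not pass the filter on low levels over all cells. The AP-1 genes, named here after their values were seen, did not share one order of sets over all cells. There *Junb*, at 10.4, 19.8 and 9.52, and *Atf3*, at 1.19, 2.14 and 1.72, were highest in set 2, while *Jun*, at 17.9, 19.7 and 20.1, and *Jund*, at 16.5, 18.4 and 18.8, were highest in set 3. *Fos*, at 17.6, 16.9 and 17.3, and *Fosb*, at 11.8, 11.2 and 13.9, were lowest in set 2 over all cells. In granulosa-marker cells the orders were others, since *Jun*, at 14.9, 22.8 and 17.5, and *Jund*, at 14.5, 20.9 and 19.8, were highest in set 2, and *Fos*, at 13.1, 16.02 and 18.6, and *Fosb*, at 8.92, 11.6 and 12.6, were higher in set 2 than in set 1.

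Genes described as NR4A or EGR targets went different ways. *Star*, which moves cholesterol into mitochondria, was at 0.537, 4.88 and 6.29 over all cells of sets 1, 2 and 3. In granulosa-marker cells *Star* was at 0.0452, 3.51 and 0.594, so set 2 was highest there. The levels that follow are over all cells. *Cyp19a1*, the aromatase gene, was at 0.948, 2.55 and 0.0406, and *Ptges*, a prostaglandin E synthase gene, at 0.442, 0.935 and 0.314. The androgen synthesis gene *Cyp17a1* was at 8.77, 4.50 and 1.24, *Hsd3b1* at 23.5, 15.1 and 6.86, and the theca hormone gene *Insl3* at 0.243, 0.0396 and 0.0141. Theca-marker cells held 19.3%, 7.25% and 8.07% of all UMIs in sets 1, 2 and 3. The part of this in the levels of *Cyp17a1*, *Hsd3b1* and *Insl3* was not tested. These 6 target genes are from a list of 7 whose other gene, the pituitary hormone subunit gene *Lhb*, was not analysed here. Of the 6, 3 were at least 2-fold higher in set 2 than in set 1, and 1 was at least 2-fold lower, against 3.74% and 6.26% of all genes. The lower one, *Insl3*, passed the low-value filter through set 1 alone, so it had to be lower in set 2. Of 12 LH-responsive genes, 11 were at least 2-fold higher in set 2 than in set 1, against 3.74% of all genes, with a median ratio over the 12 of 8.12. In set 3, 9 were at least 2-fold higher than in set 1, against 5.13% of genes, with a median of 7.78. In set 2, 6 were at least 2-fold higher than in set 3, against 7.08%. *Areg*, *Btc*, *Ptgs2*, *Tnfaip6* and *Has2* were at 0.00909 to 0.0399 in set 1. Against set 1 they passed the low-value filter through set 2 alone, or through set 3 alone, so they had to be higher there. Their part in the counts and medians against set 1 is no result. The one of the 12 not higher in set 2 than in set 1 was *Lhcgr*, the LH receptor gene, at 3.01, 1.20 and 0.260.

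Immediate early genes also respond to tissue dissociation. Of 8 heat shock genes that respond to it, all 8 were higher over all cells in set 2 than in set 1 by more than counting error, as were 22% of all genes, and none was 2-fold higher or lower. Their ratios ran from 1.09 to 1.496, with a median of 1.27. Against set 3, 4 of the 8 were higher and 3 lower by more than counting error, as were 34.7% and 54.8% of all genes, with ratios from 0.629 for *Hsph1* to 1.48 for *Hspa1b*, genes named after their values were seen. The summed level of the 8 was 33.1, 43.0 and 41.1 over all cells of sets 1, 2 and 3, of which *Hspa8* alone, the gene of a constitutive chaperone, made up 13.5, 17.8 and 17.8. In granulosa-marker cells it was 27.5, 41.7 and 44.7, in stroma-marker cells 30.1, 35.9 and 44.6, and in theca-marker cells 42.9, 77.0 and 47.3. The summed heat shock level was thus higher in set 2 than in set 1 in these 3 classes, most in theca-marker cells. Of the 8 classes only smooth muscle-marker cells had a lower sum in set 2, 28.1 against 28.9 in set 1. In granulosa-marker cells *Hspa1a*, at 0.857 and 0.808 in sets 1 and 2, and *Hspa1b*, at 0.846 and 0.694, were lower in set 2. The other genes of the list were higher there. The part of heat shock in the members' levels was not tested.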

How the data were processed

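The sources name 3 ovary libraries, and the submitters' processing notes name Cell Ranger, Seurat and build mm10, with no versions. The authors deposited 1 table of natural log values, ln(1 + a gene's UMIs per 10000 in that cell), with no columns of comparisons and no columns of other samples. From these, whole UMI counts were worked back in 100% of values within 0.01 UMI (largest deviation 1.32e-11), and filters on cells or genes before deposit are not given in the sources used here. The members and all gene and marker lists were chosen with earlier results of these data known.

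Each set was clustered separately without the members (2000 variable genes, 30 principal components, 15 neighbours, Louvain resolution 1; scanpy 1.11.5, igraph 0.11.9, scikit-learn 1.9.0). For the gate, a marker's level was averaged over 15 neighbours and scaled to its 99th percentile in the set, with a minimum of 0.5 UMIs per 10000. A cell took the class of highest mean score if the score was at least 0.2 and led by 0.1, thresholds set after marker scores and clusters, but not the members, had been looked at. Granulosa subsets needed a score of 0.3. Scrublet called under 0.5% of cells, so it was taken not to have worked and no doublets were removed.

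Levels are summed UMIs per 10000 with exact Poisson 95% intervals, and ratios have exact conditional 95% intervals (numpy 2.4.6, scipy 1.17.1), both checked on simulated data. A gene was measured with a level of at least 0.05 in 1 of the 2 sets and 20 UMIs, and classes with 50 cells in each set were compared. "Beyond counting error" means that the interval of a ratio leaves out 1. Correlations used log2(level + 0.05). Shares have exact binomial (Clopper-Pearson) intervals. Named in the text are the 6 members, the listed relatives and targets, immediate early genes at least 4-fold apart between 2 sets, the 5 genes most like each member, and the leading genes of clusters. LH-responsive and heat shock genes are given as counts. *Lhcgr*, *Areg*, *Ereg*, *Btc*, *Ptgs2*, *Has2*, *Tnfaip6*, *Hspa8*, *Hsph1*, *Hspa1a* and *Hspa1b* were named after their values were seen. So were the AP-1 genes *Fos*, *Fosb*, *Jun*, *Junb*, *Jund* and *Atf3*. Alternatives changed the scale, depth, cells and gate; leaving out clusters of low depth or led by another class's markers was added after the data were seen. The knockout, knockdown and spatial experiments of the study were not analysed here.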

Additional observations from a re-analysis of the deposited data

How the results depend on the processing

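All 6 members stayed higher in set 2 than in set 1 and than in set 3, over all cells and in granulosa-marker cells, under every alternative: mean over cells in place of summed UMIs, the 50 most abundant genes left out of the totals, thinning to 3000 UMIs, cells under 1000 UMIs (569) or of highest Scrublet score (2582) left out, stricter and looser gates, named clusters in place of the gate, and the alternatives added after seeing the data, which left out clusters led by markers of another class (2129 cells) or of low depth (518 cells). The pairs of member and class highest in set 2, 44 of 48, were 41 after thinning, 42 of 47 with the stricter gate and 37 of 42 with named clusters, where no cluster was named smooth muscle (the share over all genes was computed for the 44 of 48 alone). Of 204 values of single members recomputed, among them differences of the mean log values, 132 moved by less than their interval, 72 by more and 0 changed direction. A single ratio moved by over 1.5 times, that of *Nr4a3* for set 2 over set 3 in granulosa-marker cells, from 34.0 to 64.3 after thinning to 3000 UMIs. Shares of cells depended on depth: over the whole table, *Nr4a1* had a UMI in 35.7% of cells thinned to 3000 UMIs, 27.5% at 2000 and 50.7% unthinned. For *Nr4a2* these were 10.2%, 7.58% and 17.3%, for *Nr4a3* 6.67%, 4.82% and 11.5%, for *Egr1* 84.4%, 76.8% and 89.5%, for *Egr2* 16.2%, 11.6% and 28.9%, and for *Egr3* 10.9%, 7.83% and 20.2%. No paired analysis was possible because each time point has 1 library and the columns carry no replicate number.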

Other observations

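The 10111 cells that the gate left without a class also had all 6 members at their highest level in set 2. The share of all genes with this order in ungated cells was not computed. *Nr4a3* passed the low-value filter there through set 2 alone, so it had to be highest in set 2 and its part is no result. *Nr4a3* was at 0.0446, 1.00 and 0.0412 UMIs per 10000 in ungated cells of sets 1, 2 and 3, *Nr4a2* at 0.215, 1.70 and 0.1495, and *Nr4a1* at 1.40, 4.62 and 0.703. Set 2 was 11.4-fold higher (10.3 to 12.6) than set 3 for *Nr4a2*, against 5.20-fold over all cells. *Egr1* was at 10.9, 17.3 and 10.8 there, *Egr2* at 0.571, 1.17 and 0.595, and *Egr3* at 0.235, 1.02 and 0.372.

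A lymphoid gate took 62 cells over the table, too few to compare, and in sets 1 and 3 their summed myeloid markers had higher medians, 22.1 and 10.6 UMIs per 10000, than their lymphoid markers, at 9.68 and 0, so the class name was not used there.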
